A study of Mus musculus with 8 samples.

Results

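The clustered protocadherins are adhesion proteins of the cell surface, encoded on mouse chromosome 18 by an alpha, a beta and a gamma cluster that follow one another. The members described here were chosen by their symbols. They are the 57 RefSeq protein-coding genes of chromosome 18 whose names begin with Pcdha, Pcdhb, Pcdhga, Pcdhgb or Pcdhgc, of 21900 protein-coding genes in the gene table. The alpha cluster has 14 of them, the beta cluster 22 and the gamma cluster 21. On the build GRCm38 they reach from 36930285 to 37841873. Methylation was given for tiles of 200 bp, and 66 distinct tiles between 2 kb before the first member and 2 kb after the last were listed as changed in at least 1 of the deposited tables, of 53375 distinct tiles listed anywhere. The alpha cluster held 19 of the 66, the beta cluster 12, the gamma cluster 32, counting 1 tile just past its end, and the stretches between clusters 3.

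Each alpha and gamma gene has its own variable exon, with its own promoter directly before it, and splices this exon to constant exons that the whole cluster shares. Beta genes have the variable exon alone. In neurons each cell uses a small, largely random choice of these promoters, and the resulting set of proteins lets a cell tell its own branches from those of other cells. Promoter choice depends on CTCF and cohesin, which join a promoter to a distant enhancer, and methylated promoters of the family are bound poorly by CTCF and are not used. The last members of the alpha and gamma clusters, called C-type (Pcdhac1, Pcdhac2, Pcdhgc3, Pcdhgc4 and Pcdhgc5), are closer to each other in sequence than to their neighbours and are used less randomly. In human colorectal tumours the protocadherin clusters are known as a stretch where many promoters gain methylation.

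The samples were organoids grown from crypts of the proximal colon of male mice about 40 days old that carried a heterozygous Cre-activable BrafV600E allele, which encodes a BRAF kinase that is always on. All groups carry this allele, and the lentivirus, with or without Cre, was given to the organoid culture. In the BrafV600E group the allele had been switched on by lentiviral Cre, and the organoids were grown for 5 months and then in Base medium, without the stem-cell niche factors. Its controls had received the empty vector (EV) and stayed in full medium, also for 5 months. In the long-culture group, EV organoids had been kept in full medium for 12 months (line 1) or 14 months (line 3), and they were compared with EV organoids of 2 months. Every library followed a further 3 weeks of culture. Each of the 4 groups has 1 library from line 1 and 1 from line 3. The BrafV600E comparison therefore changes the oncogene and the medium together, and their parts cannot be told apart. The 14-month library is labelled 2 months in other fields, and the line 1 BrafV600E library names line 3 in its source, so that both were placed by their titles.

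DNA methylation was read by reduced representation bisulfite sequencing, which covers CpG-rich restriction fragments. The authors' tables compare 1 library with 1 library of the same line, and a tile appears in them where the difference reached 20 percentage points and its q-value was no higher than 0.01. A listed tile is called gained or lost by the sign of the authors' difference, and lines 1 and 3 are the only replicates. The tables used here hold no read counts, methylation levels or unlisted tiles, so depth is unknown, and a tile that is not listed may be unchanged or not covered. A tile near 0% methylation has no room for a loss and a nearly full one none for a gain.

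The share of listed tiles at the locus that gained methylation varied between library pairs, also between the lines of one comparison, and no test of these differences was made. With BrafV600E, 9 of 13 listed tiles gained methylation in line 1 (69.2%, exact 95% Clopper-Pearson interval 38.6 to 90.9) and 13 of 44 in line 3 (29.5%, 16.8 to 45.2). With long culture, 3 of 9 gained in line 1 (33.3%, 7.49 to 70.1) and 22 of 25 in line 3 (88.0%, 68.8 to 97.5). Over all chromosomes, the share of listed tiles that gained was 67.5% for BrafV600E in line 1, 40.4% in line 3, 40.9% for long culture in line 1 and 71.9% in line 3. The order of the 4 library pairs at the locus is therefore that of the whole genome, and each interval holds the genome-wide share of its own table. These intervals treat tiles as independent, which neighbours are not, and they cover counting error only. With at least 40 points required, 2 of 5 BrafV600E tiles gained in line 1 (40.0%) and 7 of 24 in line 3 (29.2%). Gains were then no longer the majority in line 1, on 5 tiles. With long culture, gains were then 0 of 3 in line 1 and 12 of 14 in line 3 (85.7%). The shares over all chromosomes were not taken at this limit.

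**Figure D1:**
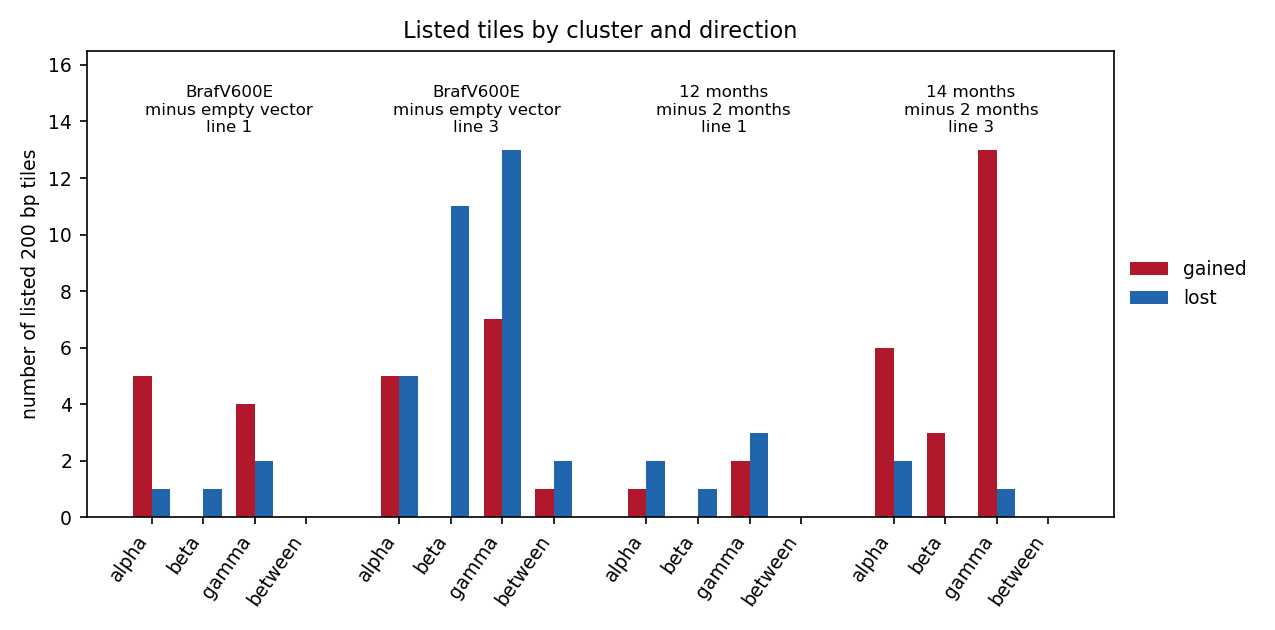
Number of listed 200 bp tiles (vertical axis) that gained (red) or lost (blue) methylation in the alpha, beta and gamma clusters and between them, for each of the 4 library pairs. In line 3 the beta cluster has 11 lost and 0 gained tiles with BrafV600E, and 3 gained and 0 lost tiles at 14 months.

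Changed tiles lay mostly near the starts of the genes. The window from 1 kb before to 3 kb after a member's start holds its promoter and most of its variable exon, and is called its start window below. These windows make up 24.9% of the 916 kb locus and held 53 of the 66 tiles (80.3%). The shared downstream parts of the alpha and gamma clusters, where the constant exons lie, held 3 tiles, the rest of the clusters 6 and the stretches between clusters 3, and 1 tile lay just past the last gamma gene. The annotated readthrough genes Gm37013, Gm38666 and Gm38667 run from within the alpha cluster to the end of the gamma cluster, so that 62, 59 and 59 of the 66 tiles lie inside them as well. Of the 66 tiles, 26 were centred within 500 bp of a member's start. The assay itself favours CpG-rich sequence, and its coverage of the locus was not known here, so the share in start windows was not set against the tiles that could have been listed.

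In all, 32 of the 57 members had a listed tile in their start window in some comparison and 25 had none. The 25 were Pcdha6 to Pcdha11, 14 of the 22 beta genes, and Pcdhga6, Pcdhga8, Pcdhga12, Pcdhgb6 and Pcdhgc5 of the gamma cluster. Of the members with tiles, 13 were listed once over the 4 comparisons and 10 were listed 2 times. Pcdhac1 had the most listings, with 7, followed by Pcdhac2 and Pcdhga10 with 6 each, and Pcdhb1 and Pcdhgc3 with 5 each.

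**Figure D2:**
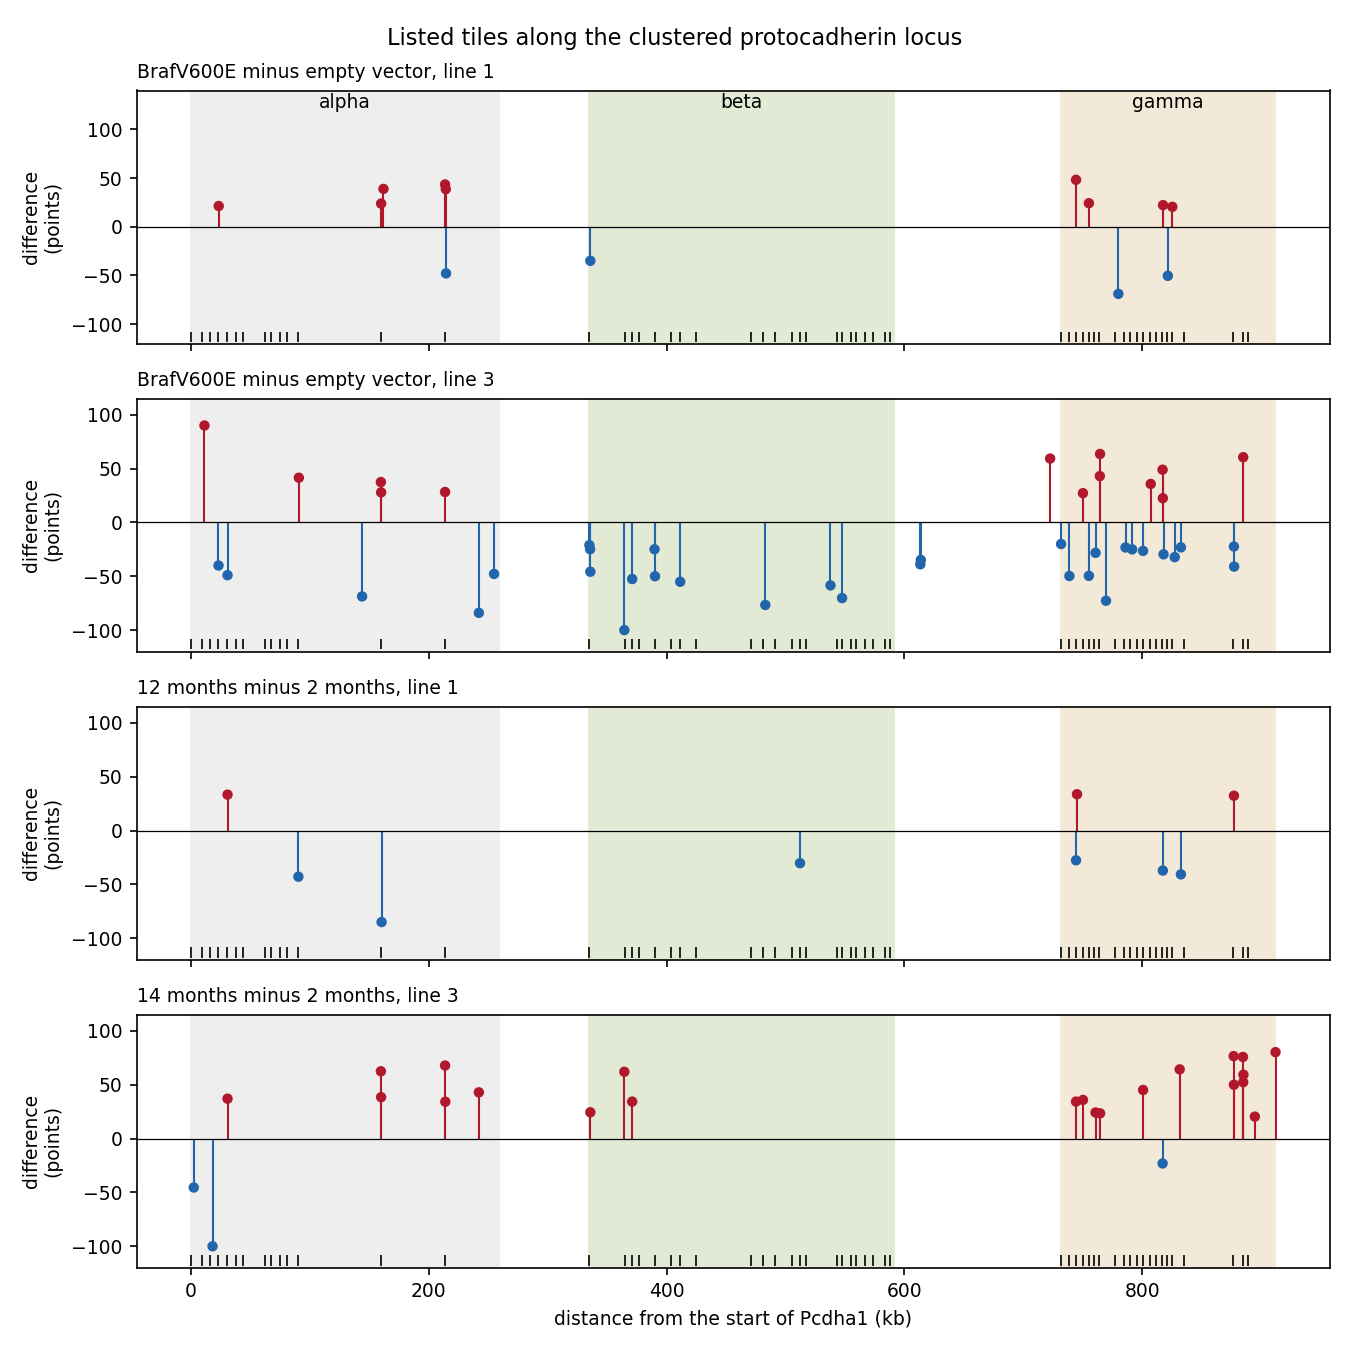
Methylation difference in percentage points (vertical axis) of every listed tile against the distance from the start of Pcdha1 in kb, one panel for each library pair; red tiles gained, blue tiles lost, shading marks the clusters and black ticks the starts of the 57 members. Line 3 has 44 listed tiles with BrafV600E and 25 at 14 months, against 13 and 9 in line 1.

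The first comparison, of BrafV600E organoids grown in Base medium with EV organoids of equal line and age, asks what the active oncogene and growth without niche factors bring with them. Pcdhac1 gained methylation at its promoter in both lines, and Pcdhb1 lost methylation inside the gene in both lines. These were the only members with start-window tiles of a single and equal direction in lines 1 and 3. In line 3 the beta cluster lost methylation at all 11 of its listed tiles, while line 1 had 1 listed beta tile, also a loss.

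In line 1, 9 members had a listed tile in their start window: 6 with gains only, 2 with losses only and 1 with both. These are 15.8%, 10.5% and 3.51% of members for any tile, gains only and losses only. The same window held a tile at 13.3% of the 17492 protein-coding genes with a known strand, gains only at 9.34% and losses only at 3.36%. These genes, called all genes where start windows are counted, include none of chromosome 18, whose strands were not known. In line 3, 27 members had a tile, 8 with gains only, 18 with losses only and 1 with both. These are 47.4%, 14.0% and 31.6% of members, beside 16.7%, 8.99% and 5.92% of all genes. The line 1 shares thus lay within a few points of those of all genes. In line 3 the shares with any tile and with losses only lay farther above those of all genes, and no test of this difference was made, since neighbouring members are not independent.

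Pcdhac1, the first C-type gene of the alpha cluster, had gains only in both lines. Its tile at the start itself (37090001 to 37090200) gained 23.8 points in line 1 (q = 2.86e-05) and 27.9 points in line 3 (q = 7.81e-10) of the authors' deposited tables. The tile just upstream gained 37.5 points in line 3 (q = 0.000197, deposited table), and 1 tile about 2 kb into the gene gained 38.9 points in line 1 (q = 0.00349). Averaged over its start window, line 1 stood at 31.4 points and line 3 at 32.7 points, from 2 deposited differences each. Only the start tile is common to both averages.

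Pcdhac2, the next C-type gene, gained at the tile 0.22 kb after its start in both lines. That tile (37143801 to 37144000) gained 43.5 points in line 1 (q = 3.18e-07) and 28.2 points in line 3 (q = 1.48e-07) of the authors' deposited tables. In line 1, adjacent tiles about 1 kb after the start then went opposite ways, at 38.7 points (q = 0.002) and -47.9 points (q = 1.8e-05) in the deposited table. The gene therefore counts as having both directions in line 1.

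The other C-type genes lie at the end of the gamma cluster and had no listed tile in line 1. In line 3, Pcdhgc4 gained 60.6 points at 0.22 kb after its start (q = 2.68e-08) in the authors' deposited table. Pcdhgc3, by contrast in sign, had -22.4 points (q = 6.97e-05) and -41.0 points (q = 7.34e-05) at neighbouring tiles 1.09 and 1.29 kb after its start in that deposited table. C-type members together had 4 gained and 1 lost tile in line 1, and 4 gained and 2 lost tiles in line 3. They were set apart as a group with these values known. Of all listed tiles of these library pairs, 67.5% gained in line 1 and 40.4% in line 3.

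The beta genes, each with a single coding exon, showed losses only with BrafV600E. Pcdhb1, the first of them, lost at the same tile in both lines (37266001 to 37266200), with differences of -35.0 points in line 1 (q = 5.05e-05) and -45.8 points in line 3 (q = 5.71e-11) in the authors' deposited tables. Line 3 listed further Pcdhb1 tiles at -21.1 points (q = 0.00779) and -24.9 points (q = 9.19e-06) in the deposited table. Its mean in line 3 was -30.6 points over 3 tiles.

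Further along the cluster, line 3 alone had listed tiles. Pcdhb2 had the extreme value, -100.0 points at the tile just before its start (q = 1.36e-13) in the authors' deposited table. Pcdhb10 had -76.6 points inside the gene (q = 1.27e-22), and Pcdhb16 had -70.2 points at its start (q = 0.000395) in the deposited table. Pcdhb3 stood at -52.6 points, Pcdhb7 at -55.1, and Pcdhb5 at -24.9 and -50.0 in the same deposited table. In all, 7 beta genes had 10 lost and 0 gained tiles in their start windows in line 3. One more tile of the cluster, before Pcdhb15 and outside its window, had -58.5 points in the deposited table. The beta share of gains was 0 of 11 (exact 95% interval 0 to 28.5), beside 40.4% of all listed tiles of that table. The alpha share was 5 of 10 (18.7 to 81.3) and the gamma share 7 of 20 (15.4 to 59.2). These intervals are no test. They treat tiles of 1 library pair as independent, though Pcdhb1 holds 3 of the beta tiles and Pcdhb5 holds 2.

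Alpha genes 1 to 12, which are used randomly in neurons, had few tiles. By the authors' deposited table for line 3, Pcdha2 gained 90.0 points (q = 2.06e-08) and Pcdha12 gained 41.5 points (q = 3.71e-05), whereas Pcdha5 had -49.0 points (q = 5.01e-12) and Pcdha4 -40.0 points (q = 0.00113). Line 1 listed only Pcdha4 among them, with a gain of 21.3 points (q = 0.000273) at the neighbouring tile in the deposited table. Outside start windows, line 3 lost methylation in the shared downstream part of the alpha cluster, at -83.9 points (q = 1.5e-12) and -47.8 points (q = 0.00774), and at a tile far before Pcdhac1, at -68.8 points (q = 4.32e-07), in the deposited table.

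In the gamma cluster, A-type and B-type genes alternate along the chromosome. The 12 A-type members had 4 gained and 0 lost tiles in line 1, and 5 gained and 6 lost tiles in line 3. The 6 B-type members had 0 gained and 1 lost tile in line 1, and 1 gained and 3 lost tiles in line 3. Beside these small counts, 67.5% of all listed tiles gained in line 1 and 40.4% in line 3. Pcdhga3 led line 1 with 48.2 points at 0.36 kb after its start (q = 7.86e-22), and Pcdhgb7 had -50.4 points (q = 0.0014) in the authors' deposited table. In line 3, Pcdhga5 gained 63.6 points (q = 8.12e-40) and 43.0 points (q = 0.00162) at adjoining tiles, Pcdhga10 gained 49.0 points (q = 2.29e-37), and Pcdhga9 gained 35.8 points (q = 4.24e-31) in the deposited table. The losses in line 3 were smaller in several genes, with Pcdhga7 at -23.2 points, Pcdhgb4 at -25.0, Pcdhgb5 at -26.4 and Pcdhgb2 at -28.2 in the deposited table. Pcdhga2 stood lower, at -49.8 points, and Pcdhga1 lay at the limit of the tables, at -20.04 points (q = 0.00128, deposited table). Pcdhgb1 was the B-type gene that gained in line 3, by 27.2 points (q = 0.005, deposited table). Pcdhga11 gained 20.5 points just before its start in line 1 (q = 3.28e-08) and had -32.2 points about 1.9 kb into the gene in line 3 (q = 3.32e-05) in the deposited tables.

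Pcdhga10 shows how neighbouring tiles can differ. Its line 3 tiles at 0.48, 0.68 and 1.28 kb after the start had 49.0, 22.5 and -29.6 points in the authors' deposited table, and its line 1 tile at 0.88 kb gained 22.2 points (q = 0.000257). Pcdhga4 is the member where the same tile (37685401 to 37685600) was listed with opposite signs, a gain of 24.2 points in line 1 (q = 0.00701) and -49.6 points in line 3 (q = 4.42e-19) of the deposited tables.

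Few tiles were listed in both lines with BrafV600E: 4, which are 30.8% of the 13 in line 1 and 9.09% of the 44 in line 3. Of the 4, those of Pcdhac1 and Pcdhac2 gained in both lines, that of Pcdhb1 lost in both, and that of Pcdhga4 had opposite signs. Of 5934 tiles listed in both lines over the genome, 73.9% had the same direction, beside 3 of 4 here.

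**Figure D3:**
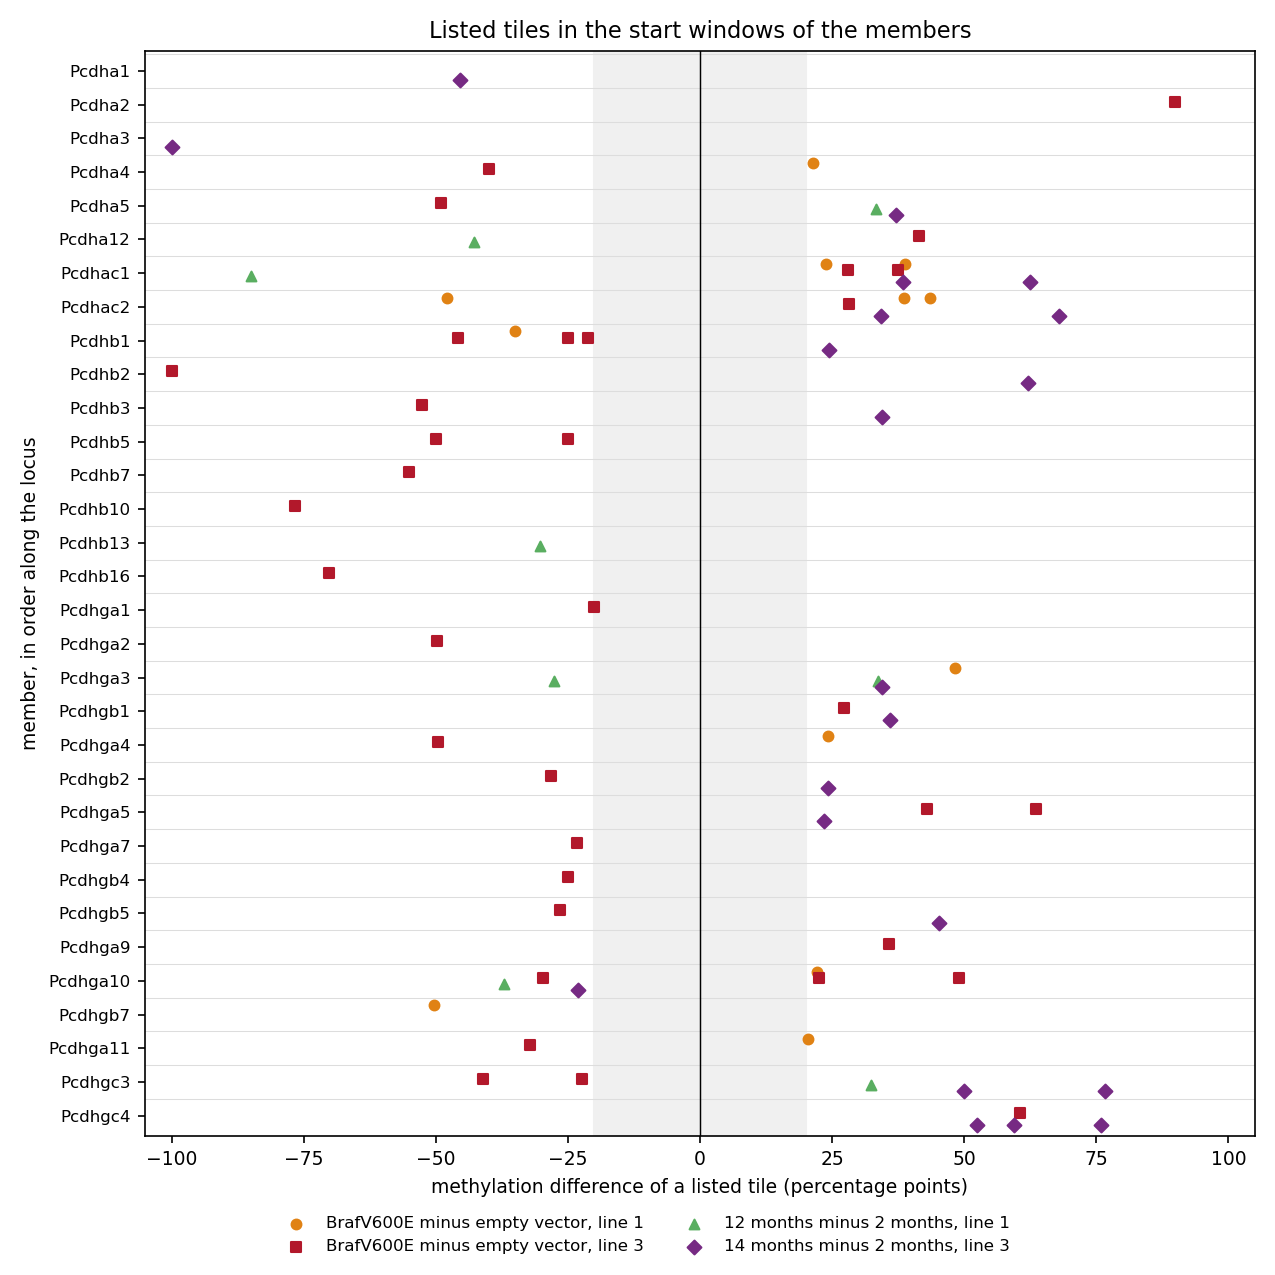
Methylation difference in percentage points (horizontal axis) of each listed tile in the start window of the 32 members that had any, in their order along the locus; each symbol is 1 tile in 1 library pair, and the grey band is the range below 20 points that the tables leave out. The 7 beta genes with a tile in line 3 with BrafV600E lie left of zero there. Only 3 of these genes have a tile at 14 months, and those tiles lie right of zero. Pcdhgc3 and Pcdhgc4 reach 76.6 and 75.8 points at 14 months.

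The second comparison, of long-cultured with 2-month EV organoids, asks what months of growth do to methylation when the oncogene is silent. In line 3 at 14 months the locus gained at 22 of 25 tiles, 9 of them at the C-type genes Pcdhgc3, Pcdhgc4, Pcdhac1 and Pcdhac2. In line 1 at 12 months 9 tiles were listed, 3 of them gains. Pcdha5 and Pcdhgc3 gained in both lines, and Pcdhga10 lost in both.

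In line 1, 7 members had a start-window tile, 2 with gains only, 4 with losses only and 1 with both, which is 12.3% with any tile, 3.51% with gains only and 7.02% with losses only. The shares over all genes were 9.36%, 4.75% and 3.91%. In line 3, 16 members had a tile, 13 with gains only and 3 with losses only. These are 28.1%, 22.8% and 5.26% of members, beside 15.6%, 11.8% and 3.27% of all genes.

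The C-type genes had 9 gained and 0 lost tiles at 14 months in line 3, spread over 4 of the 5 members. Of all listed tiles of that library pair, 71.9% gained. The group was set apart with these values known. Pcdhgc4 gained at 3 adjoining tiles, by 75.8 points (q = 1.61e-11), 52.4 points (q = 1.22e-05) and 59.4 points (q = 1.01e-49) from its start onwards in the authors' deposited table. Pcdhgc3 gained 76.6 points (q = 6.77e-22) and 50.0 points (q = 6.18e-23) at adjoining tiles 0.89 and 1.09 kb after its start in that deposited table. At the second of these tiles (37807401 to 37807600) line 1 at 12 months also gained, by 32.3 points (q = 3.5e-06) in the deposited table. Pcdhac2 gained 67.9 points at the tile that also gained with BrafV600E (q = 6.52e-50), and 34.2 points at the next one (q = 2.56e-05) in the deposited table.

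Pcdhac1 went opposite ways in the lines, at different tiles. Line 3 gained 62.5 points (q = 1.92e-07) and 38.5 points (q = 2.73e-27) at the tiles just before and across the start in the authors' deposited table. Line 1 had -85.0 points (q = 0.000244) at a tile 0.36 kb after the start in its deposited table. The other listed C-type tile of line 1 was the gain of Pcdhgc3.

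Among the other alpha genes, Pcdha5 gained at the same tile in both lines (36960801 to 36961000), by 33.3 points in line 1 (q = 0.00633) and 37.1 points in line 3 (q = 2.07e-13) of the authors' deposited tables. Tiles about 2.2 kb into Pcdha3 and Pcdha1 lost methylation in line 3, at -100.0 points (q = 5.03e-09) and -45.4 points (q = 0.00393) in the deposited table. Pcdha12 had -42.9 points in line 1 (q = 0.00369) in the deposited table. The shared downstream part of the alpha cluster gained 43.0 points at 1 tile in line 3 (q = 0.000379, deposited table).

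Beta genes gained in line 3, with 62.1 points at Pcdhb2 (q = 0.000572), 34.4 at Pcdhb3 (q = 0.0075) and 24.4 at Pcdhb1 (q = 0.00118) in the authors' deposited table. Line 1 listed 1 beta tile, at the start of Pcdhb13, with -30.3 points (q = 0.000348) in its deposited table. At 3 and 1 tiles, the beta cluster was too thinly listed to set the lines against each other.

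Gamma A-type and B-type genes gained at 5 of 6 start-window tiles in line 3, beside 71.9% of all listed tiles of that library pair. Pcdhgb5 gained 45.2 points (q = 4.81e-09), Pcdhgb1 35.9 (q = 6.57e-06), Pcdhga3 34.4 (q = 1.9e-14), Pcdhgb2 24.3 (q = 0.00271) and Pcdhga5 23.5 (q = 6.76e-06) in the authors' deposited table. Pcdhga10 was the exception, at -23.1 points in line 3 (q = 6.69e-09) and -37.2 points in line 1 (q = 0.00157), at adjoining tiles of the deposited tables. Pcdhga3 in line 1 had -27.6 points (q = 0.00014) at the tile that gained in line 3, and 33.7 points (q = 0.000799) at another tile further into the gene, in the deposited table.

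Beyond the members' starts, line 3 at 14 months gained 80.3 points (q = 1.61e-05) at a tile 528 bp past the end of the last gamma gene and 20.4 points (q = 2.4e-05) inside the shared downstream part in the authors' deposited table. The first of these is the sole tile that the 2 kb margin added to the locus. Tiles near Pcdhgb8, a transcribed pseudogene (37761801 to 37840489) and so not a member, also changed. At its start line 3 gained 64.3 points at 14 months (q = 0.000484), and 1.1 kb further in, the differences were -23.1 points with BrafV600E in line 3 (q = 2.4e-06) and -40.7 points at 12 months in line 1 (q = 4.16e-05) in the deposited tables.

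Tiles listed in both lines with long culture numbered 3, which are 33.3% of the 9 in line 1 and 12.0% of the 25 in line 3. Those of Pcdha5 and Pcdhgc3 gained in both, and that of Pcdhga3 lost in line 1 and gained in line 3. Over the genome 68.5% of 3220 such tiles had the same direction.

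BrafV600E and long culture met at 15 tiles in line 3, which are 34.1% of the 44 BrafV600E tiles and 60.0% of the 25 long-culture tiles. These comparisons use separate control libraries, of 5 and of 2 months. At 6 of the 15 tiles both gained: the upstream and start tiles of Pcdhac1, the first Pcdhac2 tile, and tiles of Pcdhgb1, Pcdhga5 and Pcdhgc4. At 8 tiles the difference was a loss with BrafV600E and a gain with long culture. These were tiles of Pcdha5, Pcdhb1, Pcdhb2, Pcdhb3, Pcdhgb2, Pcdhgb5 and Pcdhgc3 and the downstream alpha tile. The opposite pairing occurred once, at Pcdhga10, with 49.0 points with BrafV600E and -23.1 points at 14 months in the authors' deposited tables. The same direction was thus found at 6 of 15 tiles, beside 51.9% of 6964 tiles listed in both comparisons of line 3 over the genome. Of those 6964 tiles, 2419 were lost with BrafV600E and gained with long culture, and 929 went the other way.

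**Figure D4:**
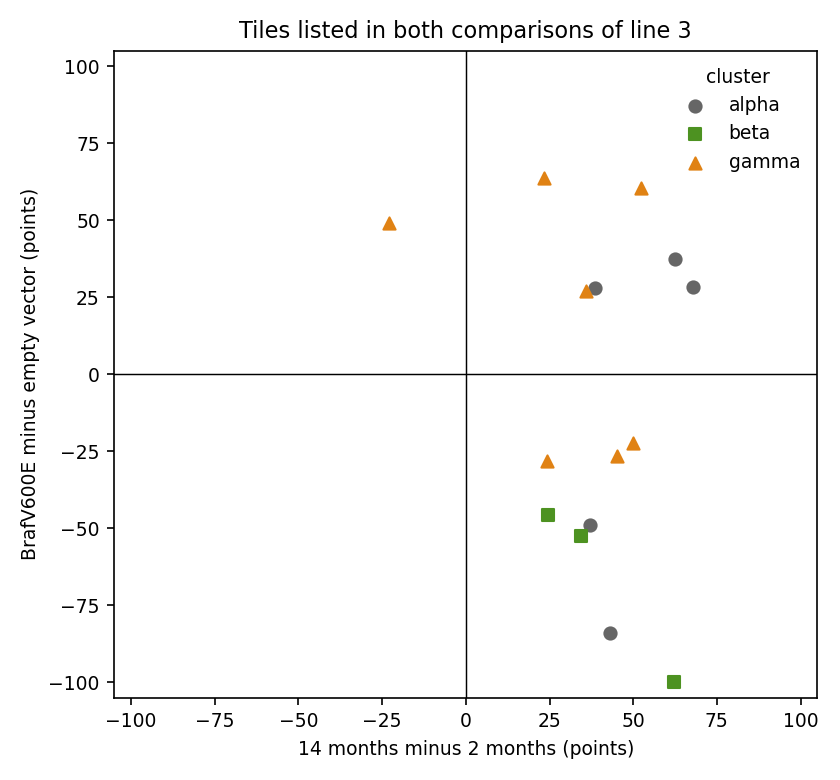
Difference between BrafV600E and empty-vector organoids (vertical axis, percentage points) against the difference between 14 and 2 months (horizontal axis) at the 15 locus tiles listed in both comparisons of line 3; each symbol is 1 tile, by cluster. The 3 beta tiles all lie at the lower right, lost with BrafV600E and gained at 14 months.

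Among the 6 tiles of line 3 that gained in both comparisons, that of Pcdhgc4 had 60.6 points with BrafV600E and 52.4 points at 14 months. The Pcdhac2 tile had 28.2 and 67.9 points in the same order, in the authors' deposited tables. The pairs that follow are of opposite sign. Pcdhb2 just before its start had -100.0 points with BrafV600E and 62.1 points at 14 months, and the downstream alpha tile had -83.9 and 43.0 points in the same order, in the authors' deposited tables. Pcdha5 had -49.0 and 37.1 points, and Pcdhgb5 -26.4 and 45.2 points in those deposited tables. In line 1 just 1 tile was listed in both comparisons, that of Pcdhga3, at 48.2 points with BrafV600E and -27.6 points at 12 months in the deposited tables. Over the genome 48.9% of 2384 such tiles of line 1 had the same direction. No tile of the locus was listed in all 4 comparisons, and 6 were listed in 3 of them.

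Genes that work with or resemble the family were looked up from 1 kb before to 1 kb after each gene, where 22.8% of 21900 protein-coding genes held a tile with BrafV600E in line 1 and 30.9% in line 3, and 15.9% with long culture in line 1 and 25.8% in line 3. Of the 12 non-clustered protocadherins, which are encoded singly elsewhere, 9 and 8 had a tile with BrafV600E in lines 1 and 3, and 7 and 10 with long culture. Longer genes hold more tiles, and length was not adjusted for. With BrafV600E the counts of genes with gains only and losses only were 4 and 1 in line 1, and 3 and 3 in line 3. With long culture they were 4 and 2 in line 1, and 7 and 0 in line 3. The shares of all genes with gains only or losses only were not counted for this window. Of all listed tiles, 67.5% and 40.4% gained with BrafV600E in lines 1 and 3, and 40.9% and 71.9% with long culture.

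The gains named below were picked for equal direction in both lines of a comparison. With BrafV600E, Pcdh15 and Pcdh8 went opposite ways in the lines. Pcdh15 averaged 38.9 points in line 1 (4 tiles) and -42.3 points in line 3 (8 tiles). Pcdh8 had 22.8 points (2 tiles) and -24.2 points (1 tile), by the authors' deposited values. Pcdh17, a protocadherin of synapses, gained in all 4 comparisons. With BrafV600E its tiles averaged 44.0 points in line 1 (4 tiles) and 38.5 points in line 3 (3 tiles), and with long culture 36.3 points in line 1 (2 tiles) and 58.6 points in line 3 (5 tiles), by the authors' deposited values. Pcdh19, the X-linked gene mutated in a human epilepsy, gained 58.3 points in line 1 (1 tile) and on average 38.0 points in line 3 (5 tiles) with BrafV600E, by the deposited values. Pcdh8 and Pcdh1 gained in both lines with long culture, Pcdh8 by 40.6 points (1 tile) and 29.7 points (5 tiles), and Pcdh1 by 44.1 points (1 tile) and 62.4 points (4 tiles), by the deposited values.

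Atypical cadherins of the Fat, Dachsous and Celsr groups, large adhesion proteins of planar polarity, had tiles at 8 of 9 genes with BrafV600E in line 1 and 9 in line 3, and at 7 and 6 with long culture. Gains only were seen at 6 and 2 of them with BrafV600E, and at 2 and 6 with long culture. Losses only were seen at 0 and 2, and at 3 and 0. Here too the shares of all genes by direction were not counted. For any tile they were 22.8% and 30.9% with BrafV600E and 15.9% and 25.8% with long culture, with length not adjusted for. Fat2 went opposite ways in the lines with BrafV600E, at 65.8 and -34.3 points (1 tile each). With long culture so did Dchs2, at -27.6 points (1 tile) and 37.7 points (9 tiles), and Celsr3, at -75.8 points (2 tiles) and 38.6 points (4 tiles). With long culture Fat4 gained on average 27.1 points in line 1 (2 tiles) and 56.9 points in line 3 (15 tiles) by the authors' deposited values. Dchs1, whose product binds Fat4, gained 52.5 points (1 tile) and 48.0 points (8 tiles), and Celsr2 gained 40.8 and 30.2 points with BrafV600E at 1 tile each, by the deposited values.

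The CTCF and cohesin genes, whose products act on promoter choice, had a tile at 1 of 11 (9.09%) and 2 of 11 (18.2%) with BrafV600E in lines 1 and 3, and at 2 (18.2%) and 1 (9.09%) with long culture. These shares lay below those of all genes except in line 1 with long culture, where 15.9% of all genes had a tile, and no test was made. No gene of this list had tiles of 1 direction in both lines of a comparison. Of 8 genes that silence or methylate the cluster, 1 in each line (12.5%) had a tile with BrafV600E. With long culture, 2 (25.0%) and 4 (50.0%) did. Lrif1, a partner of the silencing protein Smchd1, gained 53.9 points in line 1 and 63.5 in line 3 with long culture at 1 tile each in the authors' deposited tables. Of 10 signalling partners, 5 in each line had a tile with BrafV600E, and 2 and 3 with long culture. Cyfip1, a part of the WAVE complex, gained 22.9 and 20.3 points with BrafV600E in line 1 and line 3, at 1 deposited tile each.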

How the data were processed

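Reduced representation bisulfite libraries (50 bp single-end reads, about 10% phiX, per the labels' protocols) were made from organoid DNA. The submitters' processing notes name the build GRCm38 (mm10), FastQC 0.11.7 and Trim Galore 0.4.4, the aligner Bismark 0.14.3, and methylKit 1.7.4. How reads were trimmed and which coverage was required is not given in the sources used here. Per the file headers, the 8 deposited tables hold tiles of 200 bp with the authors' p-value and q-value and the difference in methylation in percentage points, always of the BrafV600E or long-cultured library minus its control. Each compares 1 library with 1, so q-values describe those libraries, and depth is unknown.

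Tiles from 2 kb before the first member to 2 kb after the last were taken with Python 3.11.15, pandas 2.3.3 and scipy 1.17.1. A tile went to the member with the nearest start whose window (1 kb before to 3 kb after) it touched. Gene positions came from RefSeq GRCm38.p6. Members have no strand there and were all read as starting at their lower coordinate, since alpha and gamma members share their ends. The background of start windows used 17492 genes with a strand, and so no gene of chromosome 18. The assignment was tested on simulated tiles. Members and lists were chosen with earlier results of these data known. Named genes were those with tiles of equal or of opposite direction in both lines, ranked by tile count and size, and the 3 most listed members; the other members with a listed tile were added. Shares have exact intervals and no test was made, since none over samples is possible. Sequences of chromosome 18 were not used here.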

Additional observations from a re-analysis of the deposited data

Results flagged for a closer look

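In 4 cases a member's start-window tiles went one way in line 1 and the other way in line 3 under the same comparison, and the difference between the lines was not tested. With BrafV600E, Pcdhga4 had a mean difference of 24.2 points in line 1 and -49.6 points in line 3, at the same tile. Pcdha4 had 21.3 points in line 1 and -40.0 points in line 3, at adjoining tiles. Pcdhga11 had 20.5 points in line 1, at its start, and -32.2 points in line 3, about 1.9 kb after its start. With long culture, Pcdhac1 had -85.0 points in line 1 over 1 tile and 50.5 points in line 3 over 2 other tiles. Pcdhga3 is not among these cases because it had both directions in line 1 with long culture. Its tile listed in both lines had -27.6 points in line 1 and 34.4 points in line 3. All are the authors' deposited differences. Over the genome, 73.9% of 5934 tiles listed in both lines with BrafV600E had the same direction. With long culture, 68.5% of 3220 such tiles did.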

How the results depend on the processing

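No paired analysis was possible because each deposited table already compares libraries of the same line and no result comes from a fit over samples. The share of gains over both lines was 38.6% with BrafV600E and lay between 29.5% and 69.2% when either line was left out; with long culture it was 73.5% and lay between 33.3% and 88.0%. The pooled shares therefore describe neither line. Tile counts shrank when at least 40 points were required, to 5 and 24 tiles with BrafV600E in lines 1 and 3 and to 3 and 14 with long culture; the share of gains then became 40.0% of 5 tiles with BrafV600E in line 1, no longer a majority, and 0% of 3 tiles at 12 months in line 1. Under that limit no tile of the locus was left in both lines. At a q-value of at most 0.001 the BrafV600E tiles listed in both lines all had the same direction (100% of 3), and of those with long culture 50.0% of 2 did. Members with a start-window tile (9 and 27 with BrafV600E, 7 and 16 with long culture in lines 1 and 3) became 3, 17, 2 and 8 at 40 points. At the stricter q-value they became 4 in line 1 with long culture. Within 500 bp of the start they were 17 with BrafV600E in line 3, and 4 and 10 with long culture. Over whole genes with 1 kb on either side they were 32, 41, 33 and 38, since a tile then counts for every gene it lies in. Margins of 0 or 10 kb and merging tiles within 500 bp moved no share of gains out of its interval. This says little, since the intervals are wide. The margins changed the tile count only with long culture in line 3, from 25 to 24 without a margin. Without read counts, unlisted tiles could not be told from uncovered ones.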
